A study of Mus musculus with 2 samples.

Results

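The 38 genes described here act in DNA synthesis (S) or in the passage from the end of S through mitosis (G2M), and they serve as transcript marks of dividing cells. They were taken by name from the 27998 gene symbols of single-cell count tables, and all 38 had a row in both tables. By known role, 12 were assigned to S and 22 to G2M. The other 4 (Ccna2, Cks1b, Stmn1 and Spc24) were kept apart and are called members of both phases. Of these, Spc24 is a kinetochore gene like Cenpe and Cenpf of the G2M list, so its place there is a choice of the lists. The tables came from natural killer (NK) cells of Mus musculus, isolated from the CD3ε-negative, NK1.1-positive gate of subcutaneous RMA-S tumors 2 weeks after injection of the tumor cells. RMA-S is a transplantable mouse lymphoma line that NK cells can recognise. The KO library came from mice whose NK cells lack Hif1a (NK-Hif1a-/-), and the WT library from wild-type mice. The labels name neither the Cre driver, the strain, the age and number of the mice, nor a sort or sequencing batch. Hif1a encodes the oxygen-regulated subunit of a transcription factor, and the comparison asks what its loss in NK cells changes in the tumor.

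In resting lymphocytes most S and G2M genes are nearly silent. Entry into the cycle releases E2F factors from pocket proteins such as Rb, which switches on the replication genes, and later the MuvB complex with B-Myb and FoxM1 switches on the mitotic genes. The anaphase-promoting complex then destroys the mitotic cyclins. NK cells divide in response to cytokines such as IL-15, and most mature NK cells in tissue are not in cycle at a given moment.

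With a single library of each genotype (1 and 1), the comparison has no replicates and no test was made. Every statement describes these libraries. Values are counts of unique molecular identifiers (UMIs), each of which stands for a captured transcript end, so they were not divided by gene length. CPM is UMIs per 1e6 UMIs summed over the cells of a library. The log2 ratio is KO over WT after adding 1 CPM to each level. All intervals are 95% intervals of counting error only. Barcodes were kept from 500 genes upward and up to 10% mitochondrial UMIs. The KO library then held 3067 cells with a median of 3793 UMIs and the WT library 3555 cells with a median of 4440 UMIs. Of their barcodes, 19 occurred in both libraries. Hif1a itself stood at 60.5 CPM in the KO library (800 UMIs) and 58.2 CPM in the WT library (1132 UMIs). The tags of these libraries lie at the 3′ end and the labels do not give the deleted part, so this level is no check on the deletion.

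The S and G2M genes were lower in the KO library as a group, and the G2M genes more so than the S genes. Of the 38 members, 29 lay 1.5-fold or more below the WT level and 0 lay as far above it. Of the 10479 genes that reached 50 UMIs over the pair of libraries, 3.86% lay that far below and 6.49% that far above. All 38 members passed that minimum of 50 UMIs. The median log2 ratio was -1.28 over the 22 G2M members, of which 20 were lower by 1.5-fold or more. Over the 12 S members it was -0.51, with 5 at least 1.5-fold lower. The 4 members of both phases had a median of -1.20, and all 4 were at least 1.5-fold lower. The median over all genes was 0.04. The list was already known to be lower in the KO library when its members were chosen, so these counts are a description and no independent support of that direction. A bulk-like sum cannot tell fewer cells with a transcript from less of it per cell, and the values per cell follow further below.

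**Figure D1:**
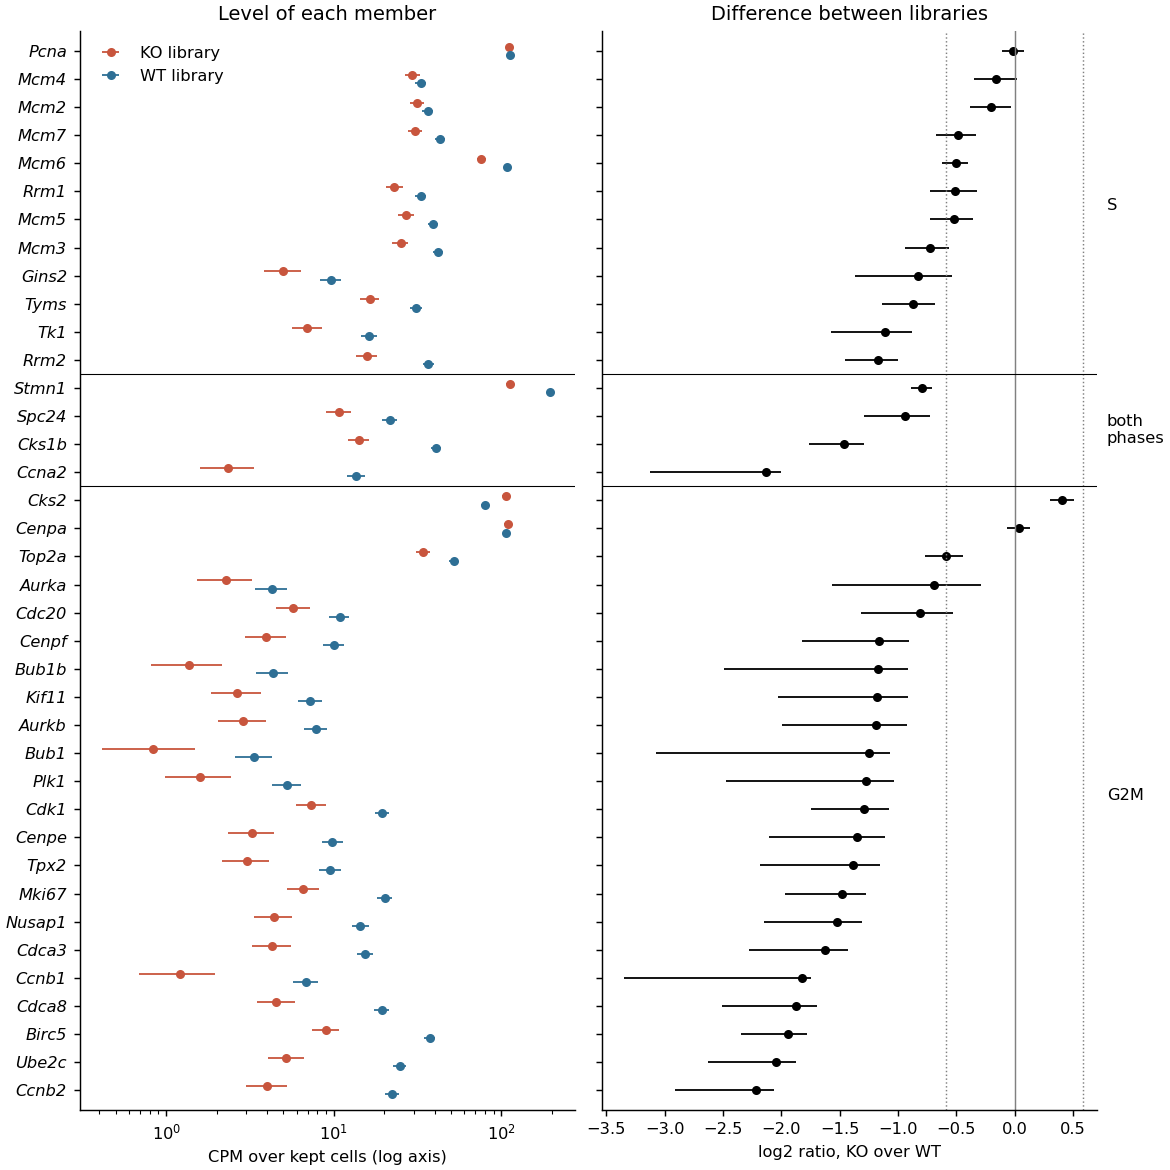
Level of each of the 38 members in CPM on a log axis (left, KO and WT library, bars are exact 95% Poisson intervals) and log2 ratio of KO over WT (right, bars are 95% counting intervals computed without the added 1 CPM, dotted lines mark 1.5-fold). The intervals of Cenpa, Pcna and Mcm4 include 0 and that of Cks2 lies above it, whereas Ccnb2, Ube2c and Ccna2 lie furthest below 0.

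Among the S members, 4 act in making deoxynucleotides, and all 4 were lower in the KO library. Rrm2, the S-phase subunit of ribonucleotide reductase (chromosome 12, 24708241 to 24714146), had 208 UMIs in the KO library and 715 in the WT library, or 15.7 and 36.7 CPM. Its log2 ratio was -1.17 (-1.453 to -0.999). The large subunit gene Rrm1, which is less tied to S phase, stood at 23.0 and 33.1 CPM, with a log2 ratio of -0.51 (-0.73 to -0.33). The Rrm1 ratio was only -0.13 in cells thinned to 2500 UMIs and -0.28 with cells weighted equally. Tk1, encoding the thymidine kinase of the salvage pathway, stood at 6.96 and 16.2 CPM (log2 ratio -1.11, -1.57 to -0.88). The Tk1 ratio was -2.10 without the 3% of cells with the most UMIs and -1.83 without cells that carried 2 markers of another cell type. Tyms, encoding thymidylate synthase, stood at 16.4 and 30.8 CPM (-0.87, -1.14 to -0.68). The Tk1 UMIs came from 42 KO and 173 WT cells, and those of Rrm2 from 94 and 242. In the KO library 10 cells held 51.0% of the Rrm2 UMIs, against 18.7% in the WT library, so the KO values rest on few cells and the intervals are too narrow for them.

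The replication licensing and fork genes ranged from a log2 ratio of -0.82 for Gins2 to -0.01 for Pcna. The MCM proteins form the helicase that unwinds DNA at replication forks. Mcm3 stood at 25.0 (KO) and 42.0 CPM (WT), with a ratio on the log2 scale of -0.73 (-0.94 to -0.56), and was the MCM gene with the largest difference. Mcm5, Mcm6 and Mcm7 lay between -0.52 and -0.49. Mcm2 stood at 31.6 and 36.5 CPM (-0.20, -0.38 to -0.03). For Mcm4, at 29.5 and 32.99 CPM, the interval of the log2 ratio included 0 (-0.16, -0.35 to 0.02). Gins2, a subunit of the GINS complex of the same helicase, stood at 4.99 and 9.61 CPM (-0.82, -1.37 to -0.53). Pcna, the sliding clamp of DNA polymerase (chromosome 2, 132249162 to 132253314), did not separate the libraries, at 111.7 (KO) and 112.6 CPM (WT) (-0.01, -0.11 to 0.08). Mcm7 overlaps 3 microRNA genes on its strand and other genes on the opposite strand, and whether the counting used strand is not given in the sources used here.

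The cyclins Ccnb2, Ccna2 and Ccnb1 had log2 ratios below -1.8, from few KO cells. Ccnb2, a mitotic B-type cyclin (chromosome 9, 70407692 to 70421547), had 53 UMIs in 30 KO cells and 433 UMIs in 158 WT cells. That is 4.01 against 22.2 CPM, 4.64-fold lower in the KO library, with a log2 ratio of -2.21 (-2.91 to -2.06). Ccna2, the cyclin of S and G2, had 31 UMIs in 14 KO cells and 265 UMIs in 124 WT cells, a log2 ratio of -2.13 (-3.12 to -1.998). Ccnb1 had 16 and 133 UMIs, a log2 ratio of -1.83 (-3.35 to -1.74). With 5 CPM added in place of 1, the ratios of Ccnb2, Ccna2 and Ccnb1 were -1.60, -1.34 and -0.93, and without the 3% of cells with the most UMIs that of Ccna2 was -2.92. Their kinase partner Cdk1 stood at 7.34 and 19.4 CPM (-1.29, -1.74 to -1.08). The Cdk-binding subunit gene Cks1b stood at 14.1 and 40.6 CPM (-1.46, -1.76 to -1.29). Its paralog Cks2 went the other way and was the only member whose interval lay above 0. Cks2 (chromosome 13, 51645232 to 51650660) stood at 106 (KO) and 80.0 CPM (WT) (0.40, 0.30 to 0.51). Its UMIs came from 887 KO and 929 WT cells, far more than those of Ccnb2 or Ccna2.

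Genes of the chromosomal passenger complex, the spindle and the kinetochore were lower in the KO library with 1 exception. Birc5, encoding survivin (chromosome 11, 117849251 to 117855743), had 119 KO and 729 WT UMIs, or 9.0 and 37.5 CPM, a log2 ratio of -1.94 (-2.35 to -1.78). Cdca8, encoding borealin, stood at 4.54 and 19.3 CPM (-1.87, -2.51 to -1.69), and its ratio was -2.58 without the 10 cells with the most member UMIs. Aurkb, the kinase of this complex, stood at 2.87 and 7.81 CPM (-1.19, -1.995 to -0.92). The spindle genes Tpx2, Nusap1 and Kif11 had log2 ratios of -1.38, -1.52 and -1.18. The checkpoint kinase genes Bub1 and Bub1b had -1.24 and -1.17, from only 11 and 18 KO UMIs, and -0.52 and -0.55 with 5 CPM added. The kinetochore genes Cenpe, Cenpf and Spc24 had -1.35, -1.16 and -0.94, and Cenpe had -1.94 without the 10 cells with the most member UMIs. The exception was Cenpa, the centromeric histone H3 variant, at 109.7 (KO) and 107.0 CPM (WT) (0.03, -0.06 to 0.13). It was carried by 844 KO and 1133 WT cells.

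Genes of mitotic entry and exit showed a wide range. Ube2c, the ubiquitin-conjugating enzyme of the anaphase-promoting complex, had 69 KO and 481 WT UMIs, 5.22 and 24.7 CPM (-2.05, -2.63 to -1.88). Cdc20, the activator of that complex, stood at 5.75 and 10.8 CPM (-0.81, -1.31 to -0.53). Its log2 ratio was -0.28 with cells weighted equally and -0.16 without the 3% of cells with the most UMIs. Cdca3, which promotes mitotic entry, stood at 4.31 and 15.4 CPM (-1.63, -2.27 to -1.43). The entry kinases Plk1 and Aurka stood at 1.59 and 5.24 CPM and at 2.27 and 4.26 CPM. Plk1 had a log2 ratio of -1.27 (-2.47 to -1.03), and -0.64 with cells weighted equally or with 5 CPM added. Aurka had a log2 ratio of -0.69 (-1.56 to -0.29), and -0.0041 in cells thinned to equal depth. Mki67, the source of the Ki-67 antigen (chromosome 7, 135689784 to 135716361), had 87 KO and 392 WT UMIs, 6.58 and 20.1 CPM (-1.48, -1.97 to -1.28). Top2a, the topoisomerase that separates sister DNA, stood at 34.2 and 52.0 CPM (-0.59, -0.77 to -0.45). Stmn1, a tubulin-binding protein gene, stood at 112 and 195 CPM (-0.79, -0.88 to -0.71).

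The promoters of the members were read for the short sequences through which cell cycle factors are known to act. These were the E2F-type sites TTTGGCGC, TTTCGCGC and GGCGGGAA, the cell cycle homology region TTTGAA or TTCGAA, which is bound by MuvB, and the CCAAT box of NF-Y. RefSeq promoters on GRCm38.p6 were found for 31 of the 38 members, with 32 start sites. In the 250 bases before the start, on either strand, a CCAAT box stood in 18 of 20 G2M promoters (90.0%) and 9 of 11 S promoters (81.8%). The share was 35.3% in 10071 promoters of genes with at least 50 UMIs, and 33.8% in all 32851 promoters. At least 2 CCAAT boxes stood in 14 of the 20 G2M promoters (70.0%) and in 13.4% of those of measured genes. A cell cycle homology region stood in 8 G2M promoters (40.0%), 2 S promoters (18.2%) and 12.5% of the measured background. An E2F-type sequence stood in 3 S promoters (27.3%), 1 G2M promoter (5.0%) and 4.77% of the background. These matches are descriptions of the letters in a window and show no binding.

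The S-phase promoters with an E2F-type sequence are shown first. Each line gives the 150 bases before the start site, 5′ to 3′ on the strand of the gene, with the 6 searched sequences in capitals, on whichever strand they were found. No searched sequence contains another, but their occurrences can overlap, as they do in Mcm6.
Mcm5 (chr8:75109359-75109508, plus strand): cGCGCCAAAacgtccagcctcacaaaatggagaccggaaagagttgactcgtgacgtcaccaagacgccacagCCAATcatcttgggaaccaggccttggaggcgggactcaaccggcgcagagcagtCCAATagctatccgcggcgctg
Mcm6 (chr1:128359706-128359855, minus strand): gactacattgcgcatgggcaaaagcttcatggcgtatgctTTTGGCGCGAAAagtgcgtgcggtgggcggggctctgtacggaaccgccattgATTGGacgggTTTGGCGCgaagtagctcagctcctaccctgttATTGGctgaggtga
Rrm1 (chr7:102441545-102441694, plus strand): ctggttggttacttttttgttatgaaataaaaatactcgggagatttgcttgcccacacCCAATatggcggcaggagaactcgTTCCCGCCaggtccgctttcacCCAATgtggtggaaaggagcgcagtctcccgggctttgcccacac

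The G2M promoters chosen for comparison are Ccnb2, the member with the lowest ratio, Top2a and Mki67, with both kinds of G2M sequence, and Cks2, the member that was higher in the KO library.
Ccnb2 (chr9:70421555-70421704, minus strand): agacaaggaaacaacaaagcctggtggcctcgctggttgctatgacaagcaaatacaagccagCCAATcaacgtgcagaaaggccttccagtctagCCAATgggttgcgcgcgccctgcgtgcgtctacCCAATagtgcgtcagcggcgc
Top2a (chr11:99024190-99024339, minus strand): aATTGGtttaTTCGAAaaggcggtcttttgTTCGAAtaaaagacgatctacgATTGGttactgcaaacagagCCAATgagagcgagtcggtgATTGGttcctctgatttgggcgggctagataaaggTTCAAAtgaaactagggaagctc
Mki67 (chr7:135716380-135716529, minus strand): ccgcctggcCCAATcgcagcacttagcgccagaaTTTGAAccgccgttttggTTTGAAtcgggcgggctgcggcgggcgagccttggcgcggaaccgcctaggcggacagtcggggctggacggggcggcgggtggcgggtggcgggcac
Cks2 (chr13:51645082-51645231, plus strand): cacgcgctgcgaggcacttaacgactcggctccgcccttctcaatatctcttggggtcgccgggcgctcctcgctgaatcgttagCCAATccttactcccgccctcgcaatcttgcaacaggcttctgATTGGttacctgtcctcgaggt
Ccnb2 carried 3 CCAAT boxes in this window and Top2a 4. Cks2 carried 2 CCAAT boxes and, like Ccnb2, no homology region in this window.

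To count cells at equal depth, each cell was thinned to 2500 UMIs, which left 2649 KO and 3463 WT cells and left out 418 and 92 shallower ones. Most cells of either library carried few members. No member was detected in 22.8% of KO and 21.4% of WT cells, and a single member in 32.7% and 33.1%. At the other end, at least 5 members were detected in 61 KO cells, 2.30% (1.77% to 2.95%), and in 199 WT cells, 5.75% (4.99% to 6.57%). At least 10 members were detected in 16 KO cells, 0.604% (0.346% to 0.979%), and in 79 WT cells, 2.28% (1.81% to 2.84%). The libraries were closer at lower counts, where 12.2% of KO and 11.6% of WT cells carried exactly 3 members. Without thinning, 9.20% of KO and 17.5% of WT cells had at least 5 members. The cut at 5 marks a range of a count and not a cell type, and 91 KO and 142 WT cells lay just below it with 4 members. In the following, cells with at least 5 members are called member-rich and those with 0 or 1 member-poor.

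**Figure D2:**
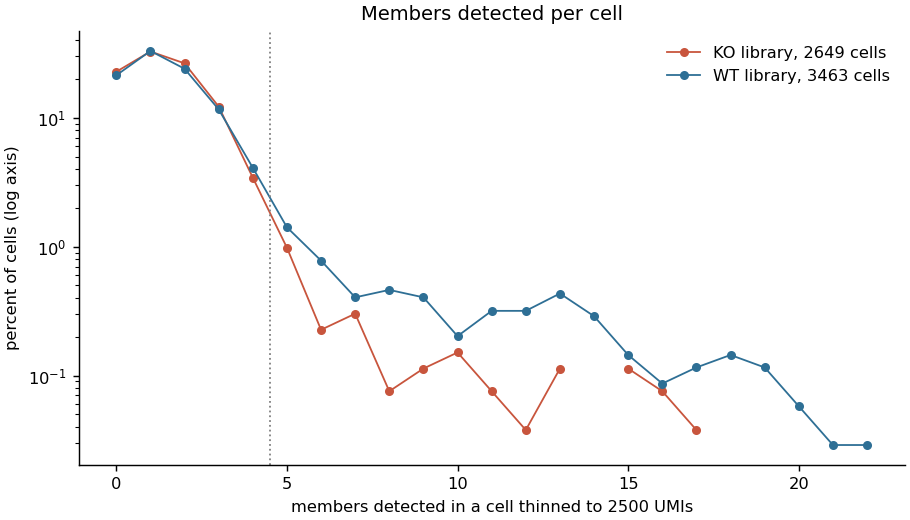
Percent of cells (log axis) by the number of the 38 members detected in a cell thinned to 2500 UMIs, for the KO and WT library; the dotted line marks the cut at 5 members. The curves lie close up to 4 members and separate above it, where 2.30% of KO and 5.75% of WT cells lie.

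Member-rich cells had more RNA than the rest. Before thinning, their median was 7657 UMIs in KO and 10546 in WT cells, against 4024 and 4438 UMIs in member-poor cells. All 61 and all 199 carried at least 2 of 10 NK markers, such as Ncr1, Klrb1c and Nkg7. So did all 1471 KO and 1886 WT member-poor cells, so this count does not set the groups apart. The median log2 ratio of these markers in member-rich over member-poor cells was -0.32 in KO and -0.39 in WT cells. NK markers summed to 21757 CPM in KO and 22020 CPM in WT member-rich cells, against 25748 and 25211 CPM in member-poor cells. Of the member-rich cells, 6 KO and 16 WT cells carried at least 2 of 9 T cell markers, or 9.84% and 8.04%, against 4.62% and 6.84% of member-poor cells. T cell markers summed to 275 and 265 CPM in member-rich and to 210.5 and 253 CPM in member-poor cells, and Cd8a was at 0 in all 4 groups. Over the 6 T cell markers with at least 50 UMIs, the median log2 ratio of member-rich over member-poor cells was 0.58 in KO and 0.006 in WT cells. In KO cells Cd3d stood at 72.1 against 38.9 CPM and Cd3g at 65.6 against 32.1 CPM. These rest on 11 and 10 UMIs in member-rich cells, with intervals that included 0, and Cd28 was lower there, at 85.25 against 120.5 CPM. Without any cell that carried 2 markers of T, myeloid, B, erythroid or basophil cells, the share of member-rich cells was 2.21% in KO and 5.66% in WT cells. Doublets were not called, and without the 3% of cells with the most UMIs in each library the shares were 1.41% and 4.20%.

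No cell type in this sort is known to lack S and G2M transcripts, so no background share is at hand. Among cells with at least 2 T cell markers, 5.08% of KO cells (1.89% to 10.7%) and 7.27% of WT cells (4.21% to 11.5%) were member-rich. Free RNA taken up in droplets can add member UMIs to any cell, and its part was not tested. In WT cells with under 5 members, Cenpa, Mcm6, Pcna, Stmn1 and Cks2 held 13.8%, 12.7%, 12.2%, 12.1% and 9.8% of all member UMIs. In WT member-rich cells, Cenpa, Mcm6, Pcna and Cks2 held only 3.7%, 5.4%, 6.2% and 4.2%, and Stmn1 17.7%. These 5 genes were the members at or above 60 CPM in either library. Counting only the other 33, 0.981% of KO and 3.61% of WT cells carried at least 5, a choice made after the values were seen.

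How far a difference came from the number of member-rich cells or from their content was read by splitting the cells separately for each member, by whether they carried at least 5 of the other 37. On unthinned counts this put 198 to 282 KO cells and 504 to 623 WT cells inside. Ccna2 had 93.5% of its KO and 90.9% of its WT UMIs inside, and Tk1 85.9% and 85.8%. Cks2 had 15.8% and 46.9% inside, and Cenpa 14.8% and 38.1%. Over the 38 members, the median share inside was 61.9% in KO and 84.4% in WT cells. Pcna, Cks2 and Cenpa, whose ratios were near or above 0, had most of their UMIs outside in the KO library. So did members with lower ratios, such as Mcm6 and Cenpf, with 27.2% and 40.4% of their KO UMIs inside.

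Inside, the G2M members stayed lower in the KO library and the S members less so, by an amount that depended on the split. The median log2 ratio inside was -1.04 for the G2M members, of which 19 of 22 were lower by 1.5-fold or more. For the S members it was -0.30, and 0 of 12 were that much lower. Among all genes inside the split, 5.3% were lower by that much and 7.22% higher. Inside, Ccnb2 stood at 18.02 (KO) and 65.7 CPM (WT) (log2 ratio -1.81, -2.38 to -1.39). Birc5 stood at 40.5 and 110 CPM inside (-1.42, -1.77 to -1.11) and Ube2c at 22.4 and 70.0 CPM (-1.60, -2.10 to -1.21). Mcm5, at 86.5 and 97.2 CPM, and Pcna, at 227 and 210.2 CPM, had intervals that included 0. The split sets these sizes: at 10 other members, which left 43 to 49 KO and 178 to 189 WT cells inside, the G2M median inside was -0.50 and the S median 0.17. At 3 other members, with 868 to 1114 KO and 1419 to 1691 WT cells inside, these medians were -1.25 and -0.57. There, 19 G2M and 6 S members were lower by 1.5-fold or more, and the share of all genes at that split is not at hand. In thinned cells split at 5 others the medians were -0.69 and -0.15, and 13 G2M and 2 S members were lower by 1.5-fold or more, against 9.96% of all genes there and 8.93% higher. The interval then lay below 0 for 6 G2M members and 1 S member, and the share of all genes with such an interval there is not at hand. Deeper cells pass the split more easily, and the WT library was deeper.

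Outside, the intervals of Cks2, Pcna and Cenpa lay above 0 and those of 13 members below it. The share of all genes with such intervals outside is not at hand. Over all kept cells, 18.8% of genes had an interval below 0. Cks2 stood at 102.7 CPM in KO and 58.4 CPM in WT cells outside, a log2 ratio of 0.80 (0.69 to 0.94), whereas inside it stood at 129 and 138 CPM (-0.10, -0.32 to 0.12). Pcna outside stood at 94.4 and 75.9 CPM (0.31, 0.19 to 0.44) and Cenpa at 107.2 and 91.2 CPM (0.23, 0.12 to 0.35). Mcm6 went the other way outside, at 64.0 and 80.2 CPM (-0.32, -0.46 to -0.19). Stmn1 was alike outside, at 70.9 and 67.6 CPM (0.07, -0.07 to 0.21), and lower in the KO library inside, at 375 and 541 CPM (-0.53, -0.65 to -0.41). Of all genes outside the split, 2.13% were lower by 1.5-fold or more and 6.16% higher. Cks2 was the only member as much higher outside. With thinned cells its log2 ratio outside was 0.75 (0.59 to 0.92), where 2.28% of all genes were lower and 5.77% higher by 1.5-fold or more.

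**Figure D3:**
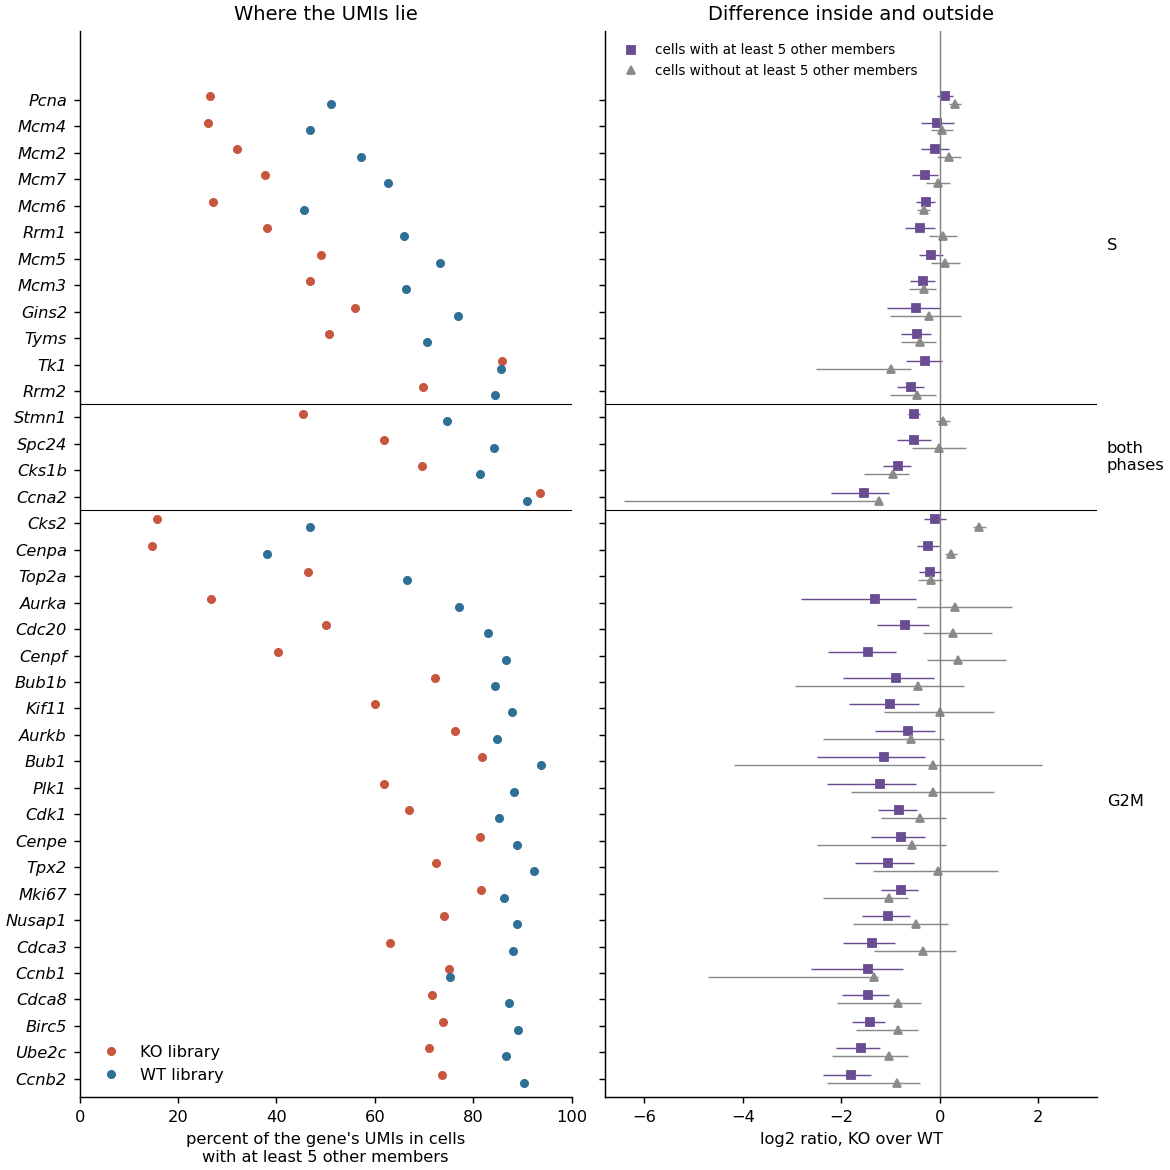
For each member, the percent of its UMIs that lay in cells with at least 5 other members (left, KO and WT library) and the log2 ratio of KO over WT in cells with and without at least 5 other members (right, bars are 95% counting intervals without the added CPM). Ccnb2, Ube2c, Birc5 and Cdca8 lie below 0 inside, and Cks2 lies at 0.80 outside and near 0 inside.

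Most member-rich cells carried both kinds of member. Of the member-rich cells, 54 of 61 in the KO library (88.5%) and 172 of 199 in the WT library (86.4%) held UMIs of S and of G2M members. Only S members were found in 5 KO and 19 WT cells, and only G2M members in 2 and 8. The S members Pcna and Mcm6 and the G2M members Cks2 and Cenpa were each detected in 15.6% to 22.2% of all thinned cells. A cell past the cut can therefore hold both kinds whatever its phase, and no expected share is at hand. By the larger number of UMIs, 28 KO cells leaned to S, 20 to G2M and 13 were tied. In the WT library 110 leaned to S, 78 to G2M and 11 were tied. As shares of all thinned cells, S-leaning cells made up 1.06% of the KO (0.703% to 1.52%) and 3.18% of the WT library (2.62% to 3.82%). G2M-leaning cells made up 0.755% (0.462% to 1.16%) and 2.25% (1.78% to 2.80%). Within the member-rich cells, the S-leaning share was 45.9% in the KO (33.1% to 59.1%) and 55.3% in the WT library (48.1% to 62.3%), with intervals that overlap. These calls rest on few UMIs: 23 of the 61 KO and 54 of the 199 WT cells lay within 1 UMI of a tie, and another random draw of the thinning put the KO share at 63.6%.

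**Figure D4:**
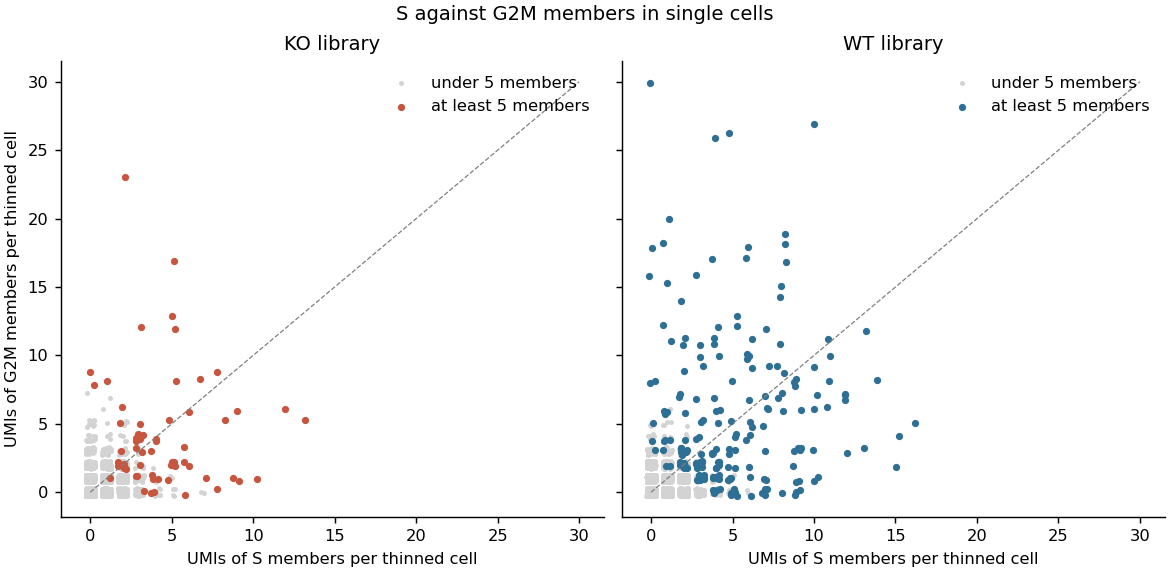
UMIs of the 12 S members against UMIs of the 22 G2M members in each cell thinned to 2500 UMIs, KO library left and WT library right, with points shifted at random by less than 1 UMI for visibility; coloured points are the 61 KO and 199 WT cells with at least 5 members and the dashed line marks equal numbers. Cells extend along both axes in the WT library, and fewer KO cells lie far from the origin.

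The S share of the S plus G2M UMIs was lower in cells with at least 10 members than in those with 5 to 9. The G2M list is longer than the S list, so a cell reaches a high count of distinct members more easily with G2M members. How much of the lower S share comes from this was not tested. In WT cells with 5 to 9 members, S members held 62.9% of the S plus G2M UMIs (59.4% to 66.3%), and in those with at least 10 members 38.8% (36.2% to 41.4%). In KO cells these shares were 58.2% (52.2% to 64.0%) and 43.8% (37.5% to 50.3%). The second KO interval included equal shares. The intervals of the libraries overlapped in both ranges. In cells with a single member, S members held 51.2% of the UMIs in the KO library (47.8% to 54.5%) and 59.7% in the WT library (56.7% to 62.6%). S-leaning cells were 66.7% of WT cells with 5 to 9 members and 37.97% of those with at least 10.

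S members tended to be found with more S transcripts than G2M members were in the WT library, with overlap between the lists. For cells that carried a given gene and at least 4 other members, the S share of the S plus G2M UMIs of the other members was computed. In the WT library, S members had shares from 39.7% to 56.2% with a median of 50.01%, and the 20 G2M members found in at least 10 such cells had shares from 24.2% to 46.4% with a median of 35.6%. The highest were Mcm3 at 56.2% over 57 cells and Mcm2 at 55.7% over 53 cells. Cenpf, at 24.2% over 26 cells, Ccnb1, at 25.9% over 13 cells, and Ube2c, at 28.4% over 46 cells, had the lowest shares. Rrm2 was the S member with the lowest share, at 39.7%, below the G2M members Top2a at 46.4%, Cdk1 at 43.0% and Mki67 at 42.6%. An S gene is left out of its own count of S UMIs, which lowers its share, and a G2M gene out of the G2M UMIs, which raises it. In the KO library 19 members reached 10 cells, 11 of them S and 5 G2M, and ran from 41.8% for Rrm2 to 62.7% for Mcm5, both S members, with the G2M members between them at 43.1% to 54.4%. The points share cells and libraries, so they are given without a test.

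**Figure D5:**
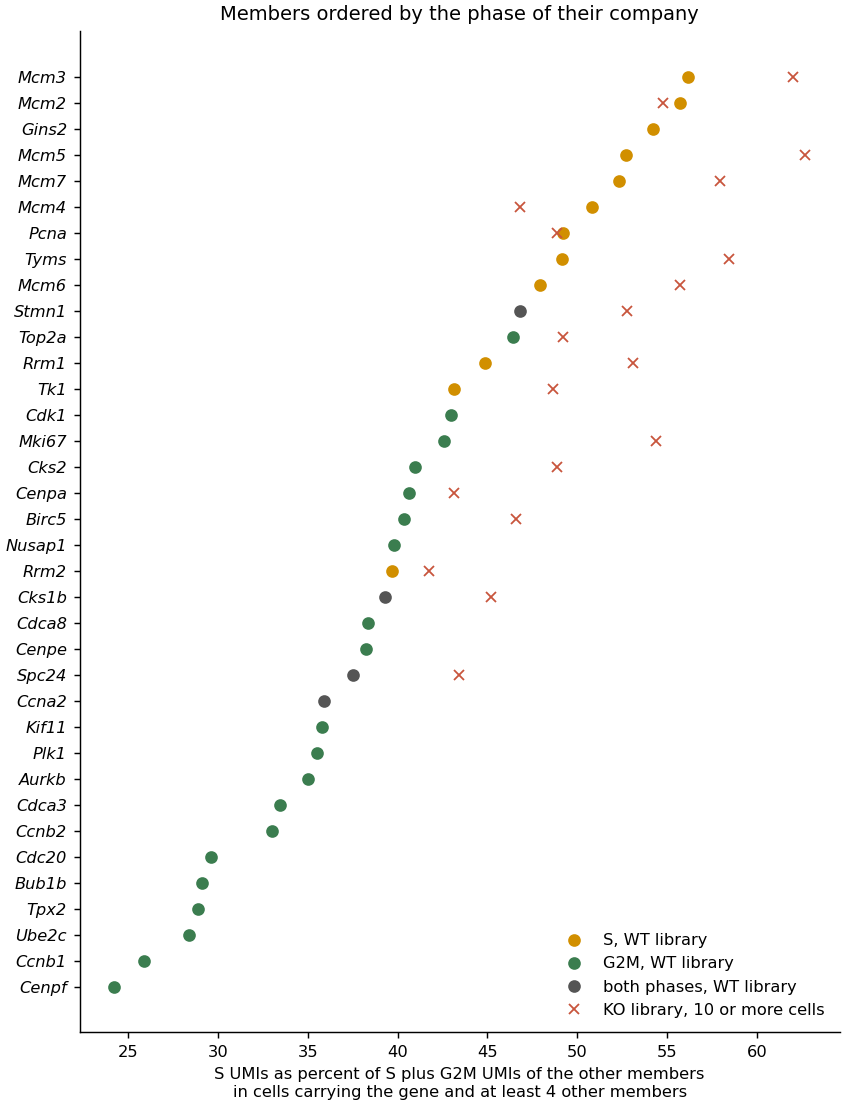
Members in the order of the S share among the S plus G2M UMIs of the other members, in cells thinned to 2500 UMIs that carried the gene and at least 4 others; filled circles are the WT library, coloured by list, and crosses the KO library, for members in at least 10 such cells. Mcm3 and Mcm2 lie at the top of the WT library at 56.2% and 55.7%, and Ube2c, Ccnb1 and Cenpf at the bottom.

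Cell cycle genes outside the 38 followed the same division by phase. Of 36 other G2M genes that reached 50 UMIs, 20 were lower by 1.5-fold or more in the KO library and 0 higher, with a median log2 ratio of -0.77. Kif20a, a kinesin of cytokinesis, and Kif2c, a microtubule depolymerase of the kinesin family, had 12 KO against 85 WT UMIs (log2 ratio -1.49, -3.28 to -1.39) and 8 against 60 UMIs (-1.35, -3.63 to -1.28). Hmmr, a spindle assembly gene, had 16 and 100 UMIs (-1.47), and Nuf2, of the outer kinetochore, 20 and 104 UMIs (-1.34). Of 32 other S genes, 10 were lower by that much and 0 higher, with a median of -0.39. Of all genes that reached 50 UMIs, 3.86% were that much lower and 6.49% higher. Cdc6, which loads the MCM helicase, had 24 and 114 UMIs (-1.28, -2.39 to -1.05). Rad51ap1, a recombination gene, had 33 and 140 UMIs (-1.23), the checkpoint adaptor gene Clspn 64 and 218 (-1.06), and the helicase gene Brip1 20 and 74 (-0.93).

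In member-rich against member-poor cells these outside genes were higher in both libraries. At least 2-fold higher were 20 of 32 other S genes in KO and 24 in WT cells, and 20 and 31 of 36 other G2M genes, with 10 CPM added to both levels, and 0 were as much lower. Among all genes that reached 50 UMIs, 4.38% in KO and 3.21% in WT cells were that much higher, and 4.96% and 0.658% that much lower. The summed level of the other G2M genes was 3003 CPM in member-rich and 1041 CPM in member-poor KO cells, and 4123 and 1010.0 CPM in WT cells. Within member-rich cells, 17 other G2M genes had at least 20 UMIs, with a median log2 ratio of KO over WT of -0.58, 8 of them lower by 1.5-fold or more and 0 higher. The 27 other S genes had -0.11, with 4 lower and 2 higher. Of all genes that reached 20 UMIs there, 13.2% were lower and 11.3% higher by 1.5-fold or more.

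The lists of cycle regulators had medians near 0. Counts at 1.5-fold in these short lists stand beside 3.86% of all genes lower and 6.49% higher. The G1 list, with D-type cyclins, their kinases and Myc, had a median log2 ratio of -0.06 over 9 genes, 1 of them higher by 1.5-fold or more and 1 lower. Myc stood at 58.6 (KO) and 37.1 CPM (WT) (0.65, 0.51 to 0.81), and Ccne1, encoding cyclin E1, at 4.39 and 7.25 CPM (-0.61, -1.19 to -0.27). Ccnd2, encoding cyclin D2, stood at 355 and 312 CPM (0.19, 0.13 to 0.24) and Cdk4, its kinase partner, at 78.6 and 96.7 CPM (-0.30, -0.41 to -0.19). The list of brakes on the cycle had a median of 0.03 over 13 genes, with 2 that much higher and 0 lower. Those were Btg2, an antiproliferative gene, at 1245 and 460 CPM (1.44, 1.40 to 1.48), and Cdkn1a, encoding the inhibitor p21, at 116 and 54.2 CPM (1.09, 0.99 to 1.22). Btg1 stood at 2266 and 1557 CPM (0.54), and Wee1, the kinase that holds Cdk1 inactive, at 6.35 and 8.84 CPM (-0.42, -0.87 to -0.09).

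Among cell cycle transcription factors the median was -0.01 over 13 genes. Mybl2, encoding B-Myb, had 21 KO and 93 WT UMIs (-1.16, -2.35 to -0.89) and was the only gene of them lower by 1.5-fold or more. Lin54, the MuvB subunit that contacts DNA, stood at 26.4 and 14.8 CPM (0.79, 0.61 to 1.07) and was the only gene as much higher. Over all genes, 3.86% were that much lower and 6.49% higher. E2f2 and E2f6 had log2 ratios of -0.43 and -0.48. Subunits and targets of the anaphase-promoting complex had a median near 0 over 15 genes. Fbxo5, encoding its inhibitor Emi1, was lower, at 4.84 and 12.5 CPM (-1.21, -1.79 to -0.97), while the subunit genes Anapc5, Anapc13 and Anapc15 had -0.36, -0.24 and -0.41.

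Within member-rich cells the brakes did not share a direction. Of 9 that reached 20 UMIs there, 3 were higher by 1.5-fold or more in the KO library and 2 lower, where 11.3% of all genes were that much higher and 13.2% lower. On thinned counts, Btg2 had a log2 ratio of KO over WT of 1.30 (1.002 to 1.65) there, with 10 CPM added, Btg1 0.89 (0.67 to 1.13) and Cdkn1a 0.86 (0.05 to 1.82), the last from 19 KO and 32 WT UMIs. Cdkn1b, encoding the inhibitor p27 and named after its values were seen, had 0.31 (0.19 to 0.45) over all cells but -1.47 (-5.17 to -0.06) in member-rich cells, from 2 KO and 27 WT UMIs. Both Btg genes were lower in member-rich than in member-poor cells of the same library. Btg1 had log2 ratios of -0.60 in KO and -1.08 in WT cells, and Btg2 -0.53 in both. Cdkn1a stood at 0.16 and 0.46 in that comparison.

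Genes in none of the lists that were highest in member-rich cells of both libraries, by the smaller of the 2 log2 ratios, were largely chromatin and tubulin genes. Hist1h2ap, a replication-dependent histone gene, stood at 328 CPM in KO member-rich and 16.0 CPM in KO member-poor cells, and at 1365 and 36.1 CPM in WT cells. Asf1b, a histone chaperone gene, had log2 ratios of 2.74 in KO and 3.02 in WT cells. Tuba1b and Tubb5, which encode tubulins, stood at 761 and 892 CPM in KO member-rich cells and at 146 and 203 CPM in KO member-poor cells. Smc2, of the condensin complex, Cit, encoding citron kinase of cytokinesis, and Shcbp1 followed, with Hist1h2ak and Hist1h1b. Histone and tubulin genes have near-identical copies, so their UMIs are uncertain where counting could split them. Insl5, a relaxin-family hormone gene, was on this list too. Its 15 KO and 19 WT UMIs in member-rich cells came from 6.56% and 2.51% of those cells.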

How the data were processed

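The deposited tables hold whole-number UMI counts per gene symbol and barcode from 10x Chromium 3′ libraries, without normalization. The submitters' processing notes name Cell Ranger 2.0.2, Seurat and mm10, and give none of them a role. What annotation, cell calling and doublet removal lay behind the tables is not given in the sources used here. The tables held 3110 KO and 3574 WT barcodes with 13407906 and 19553440 UMIs.

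From these counts, cells were kept from 500 genes upward and up to 10% mitochondrial UMIs. UMIs were summed per library and scaled to CPM in Python 3.11.15 with numpy 2.4.6, scipy 1.17.1 and pandas 2.3.3. Sums have exact Poisson, ratios exact conditional binomial and shares exact (Clopper-Pearson) 95% intervals. The added CPM does not enter ratio intervals, which can therefore exceed the ratio in genes with few UMIs. Intervals treat UMIs as independent and do not cover mice, tumors or preparations. Cells were thinned to 2500 UMIs without replacement. The code was tested on simulated data. Gene positions are those of GENCODE M21 (GRCm38, equal to mm10), and promoters from RefSeq.

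Named were all 38 members, the 4 genes of each other list that had the largest ratio in size among those from 50 UMIs upward, and among genes in no list with at least 200 UMIs the 10 highest and 8 lowest in member-rich cells. Antigen receptor, ribosomal, mitochondrial, hemoglobin and sex-linked marker genes and unnamed models were left out of the last part. Members and lists were chosen with earlier results of these data known. Alternatives covered the added CPM, scaling, cell filters, depth and cuts.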

Additional observations from a re-analysis of the deposited data

How the results depend on the processing

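With 1 library per genotype no result has a replicate check, and shallow cells limit which members are seen. No paired analysis was possible because each genotype had 1 library. Of 38 members, 35 to 37 had a log2 ratio below 0 under all 10 alternatives, Cks2 being above 0 in all and Pcna and Cenpa changing side of 0. The cause of the shifts below was not tested. The median of all members was -0.72 with 5 CPM added, -0.82 with cells weighted equally and -0.76 in thinned cells, and that of G2M members was -0.80 with 5 CPM. Under equal weights, in thinned cells and without the 3% of cells with the most UMIs, 1 member, the G2M gene Cks2, was at least 1.5-fold higher. With at least 200 UMIs required, 13 G2M members remained at least 1.5-fold lower, since fewer were counted.

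Shares of KO and WT cells past the cut, in that order, were 17.97% and 21.5% at 3 members, 5.74% and 9.85% at 4, and 0.604% and 2.28% at 10. They were 1.05% and 3.40% thinned to 1500 UMIs, 8.70% and 13.2% thinned to 4000, and 9.20% and 17.5% unthinned. Without the 3% of cells with the most UMIs they were 1.41% and 4.20%, and with members under 60 CPM only, chosen after seeing the data, 0.981% and 3.61%. The KO share was the smaller in every one of these.

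Phase calls depended on the settings. At 10 members S-leaning cells were 31.2% of KO and 37.97% of WT cells past the cut, and G2M-leaning cells 50% and 59.5%. G2M-leaning WT cells were 31.1% at 3 members and 28.6% unthinned. Thinned to 1500 UMIs, 43.0% of WT cells leaned to S and 52.9% to G2M, and with members under 60 CPM only 45.6% and 52.0%. Another random seed gave 63.6% of KO cells leaning to S. By distinct genes as a share of each list, 88.5% of KO and 74.4% of WT cells leaned to S and 11.5% and 25.1% to G2M. With Ccna2 and Cks1b as G2M genes, 47.2% of WT cells leaned to S. Split at 10 other members, the median log2 ratio inside was 0.17 for S and -0.50 for G2M members. Split at 3 other members, it was -0.57 for S and -1.25 for G2M members.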

Other observations

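Cytotoxic genes did not share a direction in member-rich cells, but Gzmc, Gzmd, Gzme, Gzmf and Gzmg were each higher there in the WT library. Log2 ratios of member-rich over member-poor cells were -0.13 (KO) and 0.03 (WT) for Gzma, and 0.005 and -0.32 for Prf1, the perforin gene. Among the other granzyme genes, Gzmc stood at 446 CPM in KO member-rich and 192 CPM in KO member-poor cells, and at 908 and 389 CPM in WT cells. Gzme, too, was higher in member-rich cells of both libraries, with log2 ratios of 1.44 (KO) and 1.51 (WT), the first from 9 UMIs in 3.28% of the 61 cells. Gzmf had 0.02 and 0.83. Gzmd and Gzmg had log2 ratios of 1.35 and 0.88 in WT cells, and only 4 and 0 UMIs in KO member-rich cells. Gzmb, the main cytotoxic granzyme, had log2 ratios of -0.40 and 0.03. The granzymes C to G are related in sequence, so their UMIs are uncertain where counting could split them.

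Among the genes in no list, Klra9, an inhibitory receptor gene of the Ly49 family, was lower in member-rich cells of both libraries, at 243 against 576 CPM in KO and 289 against 623 CPM in WT cells. Camk2n1, an inhibitor gene of calcium and calmodulin dependent kinase II, stood at 65.6 against 172 CPM and at 54.3 against 160 CPM. Camk2b, encoding a chain of that kinase, had log2 ratios of -1.84 and -1.07, and Tnfsf12, encoding the cytokine TWEAK, -1.55 and -1.12. Their KO ratios rest on only 1 and 2 UMIs in member-rich cells. Dnajb2, Cuedc1, Kdm5b and the integrin gene Itga2 completed the 8 lowest, each with a KO interval that reached above 0. Hemoglobin and Alas2 UMIs summed to 302 and 308 CPM in KO member-rich and member-poor cells, but to 96.5 and 993 CPM in WT cells. The share of WT cells with a UMI differed less for Hbb-bs, at 18.1% and 19.5%, and for Hba-a2, at 4.02% and 4.03%. For Hba-a1 it was 2.01% and 4.51%, and for Hbb-bt 0% and 2.33%.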
